A study of Mus musculus with 18 samples.

Results

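Antigen presentation is the display of peptide fragments of proteins on the cell surface by molecules of the major histocompatibility complex (MHC). Class I molecules pair a heavy chain with beta-2 microglobulin and show peptides from inside the cell, which the TAP transporter brings into the endoplasmic reticulum. Class II molecules pair an alpha and a beta chain, assemble on the invariant chain Cd74 and are made mainly by professional antigen-presenting cells. In the brain, neurons and glia express class I genes at low levels, and class II genes are expressed mostly by macrophages, dendritic cells and a minority of microglia. A set of 10 such genes was followed here, listed by symbol and read from the RNA-Seq count files: the class I heavy chains H2-K1, H2-D1 and H2-T23, the light chain B2m, the peptide transporter subunits Tap1 and Tap2, the loading factor Tapbp (tapasin), and the class II genes H2-Aa, H2-Ab1 and Cd74. They are 10 of the 34620 genes in the files, and all 10 were among the 17421 genes that had enough reads to be tested.

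The libraries came from the granule cell layer of the ventral dentate gyrus of adult male Swiss Webster mice, aged 8 to 12 weeks, dissected from frozen sections. Each of 3 groups had 2 libraries, and the number of mice behind a library is not given in the sources used here. WT mice came from a wild-type line bred in parallel. F1 mice were wild-type offspring of 5HT1A-/+ mothers, which carry a single working copy of the serotonin 1A receptor gene (5HT1A), and F2 mice were offspring of F1 females and WT males, so that the maternal genotype was wild type and the grandmaternal genotype 5HT1A-/+. The fathers of the F1 mice were 5HT1A-/+ as well, so both parents of F1 mice came from the mutant line. F2 mice had a father from the WT line. All mice of the 3 groups were themselves wild type at this gene. Swiss Webster is an outbred stock, and the mutant line was first made on the 129SvEv background and then repeatedly backcrossed to Swiss Webster. The paper adds that further backcrosses to supplier mice were made at intervals, and both lines re-established, to limit genetic drift. MHC haplotypes may still differ between lineages as well as between mice, and haplotype, lineage and group cannot be told apart in this design. Reads on genes ranged from 26358165 to 33727936 per library. Levels are given as CPM, the reads of a gene as a share of all reads on genes in the library, scaled to a common total by edgeR's trimmed mean of M-values (TMM), and 1 CPM stood for about 26 to 34 reads. Fold changes are log2 values ± the standard error of the fit, and a gene was called when the adjusted p of edgeR's exact test, over all tested genes, was under 0.01. With 2 libraries a group, these p-values measure only the spread between these libraries, which may be technical.

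No member was called in any comparison. In F1 against WT, 0 of 10 members passed, where 12.5% of all tested genes did (3.96% higher and 8.59% lower). An unadjusted p under 0.05 in the exact test was reached by 2 of 10 members and by 5747 of the 17421 tested genes. In F2 against WT, 0 of 10 passed against 12.1% of all genes (3.98% higher and 8.15% lower). Here 0 of 10 members and 5699 of the 17421 genes had an unadjusted p under 0.05. In F2 against F1, 0 of 10 passed against 0.729% of all genes. Here 3 of 10 members and 1530 of the 17421 genes had an unadjusted p under 0.05. edgeR's quasi-likelihood test and DESeq2 also called 0 members in each comparison. The members' median log2 fold change was 0.32 in F1, with 1 of 10 below 0 (49.1% of all tested genes). In F2 it was -0.13, with 6 of 10 below 0 (50% of all tested genes). F1 replicate 2 set the direction in F1, since without it the median was -0.18 and 8 of 10 lay below 0. The medians over all tested genes were 0.01 and 0.00. The F1 and F2 comparisons share the WT libraries. Between F2 and F1 all 10 members had negative log2 fold changes, with a median of -0.46 and a range from -1.30 to -0.17, where 50.2% of all tested genes were negative. Without F1 replicate 2 the median was -0.09 and 4 of 10 members, namely H2-K1, H2-Aa, H2-Ab1 and Cd74, were positive. None of the 10 single differences was called.

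**Figure D1:**
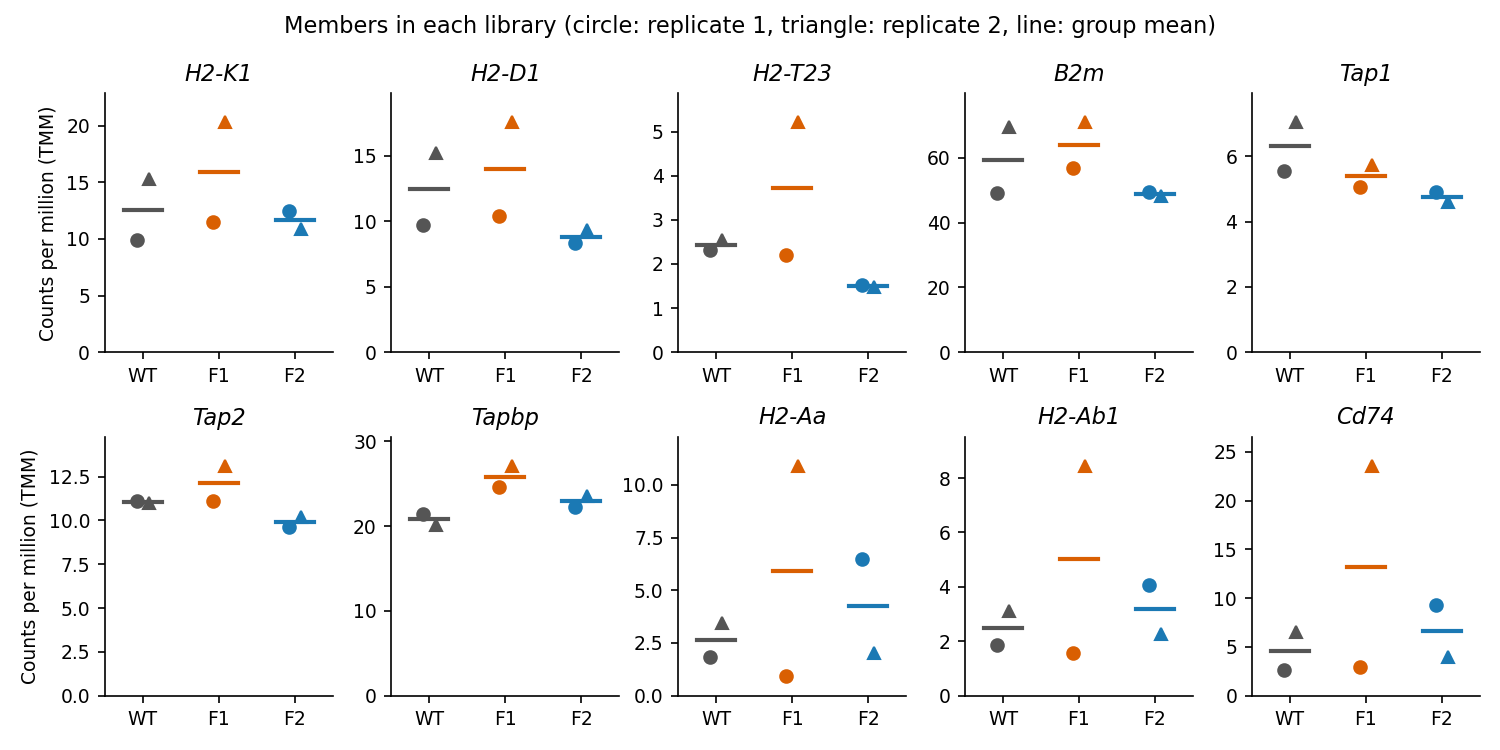
CPM of the 10 members (one panel each, y axis from 0) in the 2 libraries of WT, F1 and F2, with circles for replicate 1, triangles for replicate 2 and lines for group means. F1 replicate 2 is the highest library for every member except Tap1, and the class II panels show wide gaps between libraries of a group.

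The levels of the 10 genes differed widely when set per kilobase of exon. B2m stood first at 66.7 CPM per kb, averaged over the groups, with a range of 56.2 to 82.5 over the libraries. Tapbp followed at 7.04, Cd74 at 5.76, H2-K1 at 5.13, H2-D1 at 4.54 and Tap2 at 2.91 CPM per kb. The libraries of Cd74 ranged from 1.84 to 16.7, with the highest in F1 replicate 2. Its median of 3.69 over the libraries was below those of H2-K1 (4.59) and H2-D1 (3.89). H2-Ab1 had 2.16, H2-Aa 2.15, Tap1 1.00 and H2-T23 0.883 CPM per kb. Only B2m was separated from its neighbour in this order, since the library ranges of each of the other neighbouring pairs overlapped. The level of B2m was above that of its partner heavy chains in every library.

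The classical heavy chains H2-K1 and H2-D1 present peptides to CD8 T cells. In mm9, H2-K1 lies on chr17:34132962-34137278 on the minus strand and H2-D1 on chr17:35399675-35404444 on the plus strand, and both are protein-coding genes. Their exons are partly alike, and 83.0% of the 50-base windows of H2-K1 and 85.4% of those of H2-D1 occur at 1 place in the mm9 genome, so that reads from the rest are lost or depend on the haplotype. H2-K1 measured 9.91 and 15.3 CPM in the WT libraries 1 and 2, 11.5 and 20.3 in F1, and 12.5 and 10.9 in F2. H2-D1 measured 9.68 and 15.2 CPM in WT, 10.4 and 17.6 in F1, and 8.30 and 9.32 in F2. Both genes were highest in F1 replicate 2 and next highest in WT replicate 2, so the WT and F1 libraries overlapped, whereas both F2 libraries of H2-D1 were below both WT libraries. The log2 fold change of H2-K1 was 0.34 ± 0.27 in F1 and -0.11 ± 0.27 in F2, and that of H2-D1 was 0.17 ± 0.27 in F1 and -0.50 ± 0.27 in F2, with adjusted p between 0.192 and 0.842 in edgeR's exact test. H2-D1 took between 39.9% and 49.9% of the reads of this pair in each library.

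B2m, on chr2:121973422-121978819, encodes the light chain shared by class I molecules, and each of its exon windows occurs at 1 place in the genome. It measured 49.0 and 69.4 CPM in WT, 56.9 and 71.0 in F1, and 49.5 and 48.3 in F2. As for the heavy chains, F1 replicate 2 and WT replicate 2 were the highest libraries. The log2 fold change was 0.11 ± 0.17 in F1 and -0.28 ± 0.17 in F2, with adjusted p of 0.706 and 0.255 in the exact test of edgeR. Both F2 libraries were below both F1 libraries, with a log2 difference of -0.39 ± 0.17 and an adjusted p of 0.411 (edgeR's exact test).

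The starts of H2-K1, H2-D1, B2m and H2-Aa are shown as examples. The first 3 had the same pair of highest libraries, while the class II gene followed another order. H2-T23 and Tap1, which are not shown, also had that pair highest. The lines give the 250 bases before the RefSeq start in GRCm38.p6, a later build than that of the counts, 5′ to 3′ on the gene's strand. These windows are chr17:34000348-34000597 on the minus strand for H2-K1, chr17:35262844-35263093 on the plus strand for H2-D1, chr2:122147437-122147686 on the plus strand for B2m and chr17:34287824-34288073 on the minus strand for H2-Aa. Capitals mark matches on either strand to 5 short motifs. The first is CCAAT, which the factor NF-Y binds. The next is TGACG, the core of a cyclic AMP response element, to which 2 overlapping matches stand in H2-Aa. A kappa B site was searched as GGGATTCCC and the core of an interferon response element as GAANNGAAA. The last motif is TATAAA, the TATA box.
H2-K1: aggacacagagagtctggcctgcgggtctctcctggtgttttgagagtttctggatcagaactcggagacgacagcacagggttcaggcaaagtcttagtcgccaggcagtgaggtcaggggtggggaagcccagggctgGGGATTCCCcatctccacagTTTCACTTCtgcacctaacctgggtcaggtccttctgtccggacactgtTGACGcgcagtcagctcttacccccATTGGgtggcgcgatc
H2-D1: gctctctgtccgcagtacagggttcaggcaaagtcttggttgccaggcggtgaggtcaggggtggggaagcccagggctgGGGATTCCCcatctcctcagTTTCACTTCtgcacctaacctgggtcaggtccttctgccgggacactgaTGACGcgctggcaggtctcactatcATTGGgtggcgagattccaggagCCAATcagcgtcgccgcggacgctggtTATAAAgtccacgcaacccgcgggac
B2m: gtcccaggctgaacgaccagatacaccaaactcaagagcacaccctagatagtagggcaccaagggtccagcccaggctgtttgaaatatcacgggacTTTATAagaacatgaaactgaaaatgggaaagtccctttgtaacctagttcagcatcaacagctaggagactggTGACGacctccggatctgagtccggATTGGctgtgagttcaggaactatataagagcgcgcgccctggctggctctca
H2-Aa: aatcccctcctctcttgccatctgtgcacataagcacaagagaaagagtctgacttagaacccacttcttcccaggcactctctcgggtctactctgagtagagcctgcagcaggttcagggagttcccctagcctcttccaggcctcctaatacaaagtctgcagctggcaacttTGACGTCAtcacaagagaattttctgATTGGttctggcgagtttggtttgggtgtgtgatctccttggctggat

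Of the 10 members, 7 had an entry among the 32851 promoters of the RefSeq table, and Tap2, H2-Ab1 and Cd74 had none. CCAAT was found in 7 of the 7, against 33.8% of all promoters, and TGACG in 5 of the 7 (not in Tapbp or H2-T23), against 17.8%. The letters GGGATTCCC were found in H2-K1 and H2-D1 and in 0.301% of all promoters, and GAANNGAAA in the same 2 genes and in 6.31%. The pair of matches stood 110 and 90 bases before the start in H2-K1 and 170 and 150 bases before it in H2-D1. The letters TATAAA were found in H2-D1 and B2m and in 12.4% of all promoters. In H2-D1 they stood 26 bases before the start on the gene's own strand. In B2m they stood 152 bases before it on the opposite strand. These matches are descriptions of the letters in 1 window a gene, and binding was not measured.

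H2-T23 encodes Qa-1, a class I molecule that presents leader peptides of other class I chains and is seen by receptors of natural killer cells. It lies on chr17:36166718-36169800 on the minus strand, and 67.2% of its exon windows occur at 1 place, the rest being shared mainly with BC023719 and C920025E04Rik. It measured 2.32 and 2.53 CPM in WT, 2.21 and 5.21 in F1, and 1.53 and 1.48 in F2, from 40 to 161 reads. The F2 libraries were close to each other and below the other 4 libraries, and F1 replicate 2 stood above the rest. The log2 fold change was 0.61 ± 0.37 in F1 (adjusted p = 0.251) and -0.68 ± 0.39 in F2 (adjusted p = 0.222) in edgeR's exact test. Between F2 and F1 it was -1.30 ± 0.38 with an adjusted p of 0.0636, the lowest of any member in that comparison. Without F1 replicate 1 this last difference was called (log2 fold change -1.79, adjusted p = 1.5e-06 in edgeR's exact test), in a fit where the lone F1 library was assumed to vary like those of the other groups, and without F1 replicate 2 it was -0.55 and not called.

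Tap1 and Tap2, which form the peptide transporter, lie next to each other on chr17:34324498-34334170 and chr17:34340472-34353266. Tap1 measured 5.56 and 7.04 CPM in WT, 5.05 and 5.73 in F1, and 4.90 and 4.60 in F2. Tap2 measured 11.09 and 11.02 CPM in WT, 11.1 and 13.1 in F1, and 9.61 and 10.2 in F2. For both genes the F2 libraries were below the WT and the F1 libraries, by a log2 value of -0.40 ± 0.22 for Tap1 and -0.16 ± 0.18 for Tap2 against WT, with adjusted p of 0.189 and 0.581 in edgeR's exact test. In F1 the values against WT were -0.22 ± 0.21 for Tap1 and 0.13 ± 0.17 for Tap2. Of the exon bases of Tap2, 18.5% also lie in exons of Gm15821 or Gm20496, and the library kit did not mark strand.

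Tapbp, which bridges class I molecules to the transporter, lies on chr17:34052844-34066235. It measured 21.5 and 20.2 CPM in WT, 24.6 and 27.1 in F1, and 22.2 and 23.6 in F2. It was the 1 member whose libraries lay above both WT libraries in F1 and in F2, and its replicates were close. The log2 fold change was 0.31 ± 0.14 in F1 (unadjusted p = 0.027, adjusted p = 0.0982 in edgeR's exact test) and 0.14 ± 0.14 in F2 (adjusted p = 0.544). Its exons overlap those of Zbtb22 by 61 bases, and Zbtb22 was itself called higher in both groups by the exact test.

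Counted by library, 2 of 10 members (Tap2 and Tapbp) had both F1 libraries above both WT libraries, where 29.8% of all genes did, and 0 had both below, where 30.6% did. In F2, 1 of 10 (Tapbp) lay above WT, where 31.0% of all genes did, and 4 of 10 (H2-D1, H2-T23, Tap1 and Tap2) lay below, where 32.0% did. In F2 against F1, 0 members lay above, where 19.4% of all genes did, and 6 of 10 (H2-D1, H2-T23, B2m, Tap1, Tap2 and Tapbp) lay below, where 19.7% did.

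**Figure D2:**
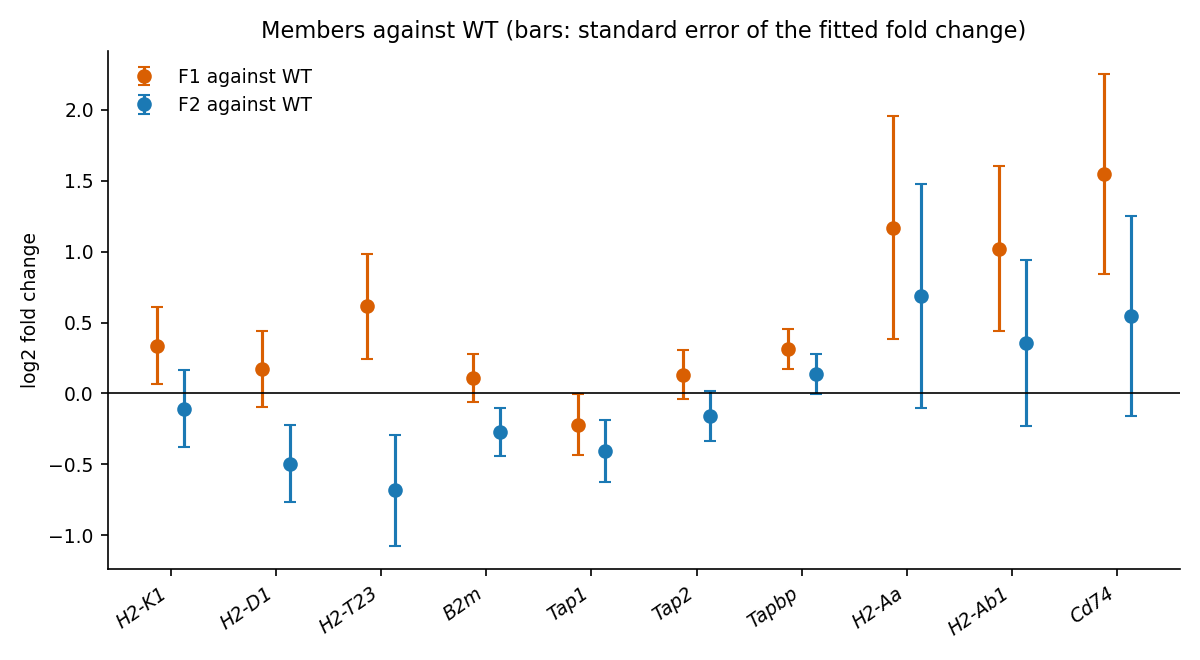
Log2 fold change of each member in F1 (orange) and F2 (blue) against WT, with bars of 1 standard error of the fitted value. Most bars of class I genes are short and near 0, and the class II genes have the widest bars, with Cd74 in F1 at 1.55 ± 0.70.

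The class II genes behaved otherwise. H2-Aa encodes the alpha chain and H2-Ab1 the beta chain of the I-A molecule, and Cd74 encodes the invariant chain that guides class II molecules to the compartment where peptides are loaded. H2-Aa (chr17:34406276-34424772, minus strand) and H2-Ab1 (chr17:34400154-34406363, plus strand) overlap tail to tail by 17 exon bases, and Cd74 lies on another chromosome. H2-Aa measured 1.82 and 3.45 CPM in WT, 0.924 and 10.9 in F1, and 6.47 and 2.00 in F2. H2-Ab1 measured 1.85 and 3.10 CPM in WT, 1.58 and 8.45 in F1, and 4.08 and 2.26 in F2. Cd74 measured 2.59 and 6.48 CPM in WT, 2.90 and 23.6 in F1, and 9.27 and 3.94 in F2.

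All 3 genes were highest in F1 replicate 2, then in F2 replicate 1, then in WT replicate 2, then in F2 replicate 2. The groups therefore overlapped, and each group held a higher and a lower library. The 2 F1 libraries differed 11.8-fold in H2-Aa, 8.12-fold in Cd74 and 5.33-fold in H2-Ab1, where the median tested gene differed 1.13-fold. These ratios exceeded those of 99.9%, 99.7% and 99.5% of the tested genes. In F2 the ratios were 3.23 for H2-Aa, 2.36 for Cd74 and 1.80 for H2-Ab1, and in WT they were 1.89, 2.50 and 1.67.

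**Figure D3:**
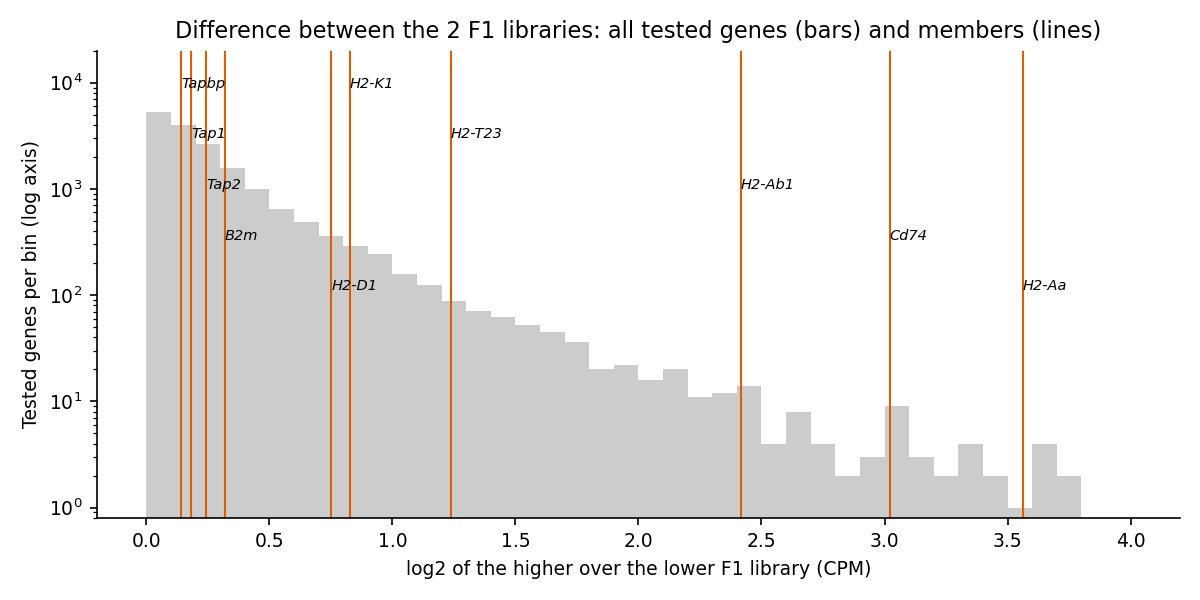
Histogram of the log2 ratio between the higher and the lower F1 library, with a line for each member. It covers the tested genes with reads in both F1 libraries (log y axis, 7 of these genes beyond 4 are not drawn). Tap1, Tap2, Tapbp and B2m lie in the bulk, H2-D1 and H2-K1 at its edge, and H2-T23, H2-Ab1, Cd74 and H2-Aa in the tail.

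The log2 fold change of Cd74 was 1.55 ± 0.70 in F1 (unadjusted p = 0.034, adjusted p = 0.116 in edgeR's exact test) and 0.54 ± 0.70 in F2 (adjusted p = 0.653). H2-Aa had 1.17 ± 0.79 in F1 (adjusted p = 0.325) and 0.68 ± 0.79 in F2 (adjusted p = 0.604) in the same exact test. H2-Ab1 had 1.02 ± 0.58 in F1 (adjusted p = 0.225) and 0.36 ± 0.58 in F2 (adjusted p = 0.737) in the exact test of edgeR. The F1 values rested on a single library. Without F1 replicate 1, 4 members were called higher in F1, with the same assumption for the lone F1 library, namely Cd74 (log2 fold change 2.39), H2-Aa (2.06), H2-Ab1 (1.79) and H2-T23 (1.12). Without F1 replicate 2, 0 members were called and the values were -0.63, -1.50, -0.63 and -0.12. In F2 the 3 class II values turned negative without F2 replicate 1.

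H2-Eb1, the beta chain of the I-E molecule, was the class II gene called higher in F1. It measured 0.618 and 0.774 CPM in WT, 1.25 and 6.15 in F1, and 0.673 and 1.15 in F2, from 18 to 190 reads. Both F1 libraries lay above both WT libraries, and F1 replicate 2 stood far above the other 5 libraries. Its log2 fold change was 2.41 ± 0.60 in F1 (adjusted p = 0.0016) and 0.39 ± 0.63 in F2 (adjusted p = 0.734) in edgeR's exact test. The call in F1 was lost with the quasi-likelihood test without a block, without either WT replicate and without F1 replicate 2.

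The balance of the chains differed between libraries. Of the reads on H2-Eb1 and H2-Aa together, H2-Eb1 took 25.3% and 18.3% in WT, 57.6% and 36.1% in F1, and 9.42% and 36.5% in F2. The exact binomial 95% intervals, which cover counting error only, were 44.8% to 69.7% in F1 replicate 1 and 5.68% to 14.5% in F2 replicate 1 and did not overlap. F2 replicate 1, second highest for H2-Aa, thus had an H2-Eb1 level within the WT range. H2-Ab1 took 38.7% to 63.2% of the reads of H2-Ab1 and H2-Aa together, and H2-Aa took 24.1% to 41.3% of those of H2-Aa and Cd74. All exon windows of these 4 genes occur at 1 place in the reference, but reads of a diverged haplotype can map less well, and the part of the haplotype in these shares was not tested.

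**Figure D4:**
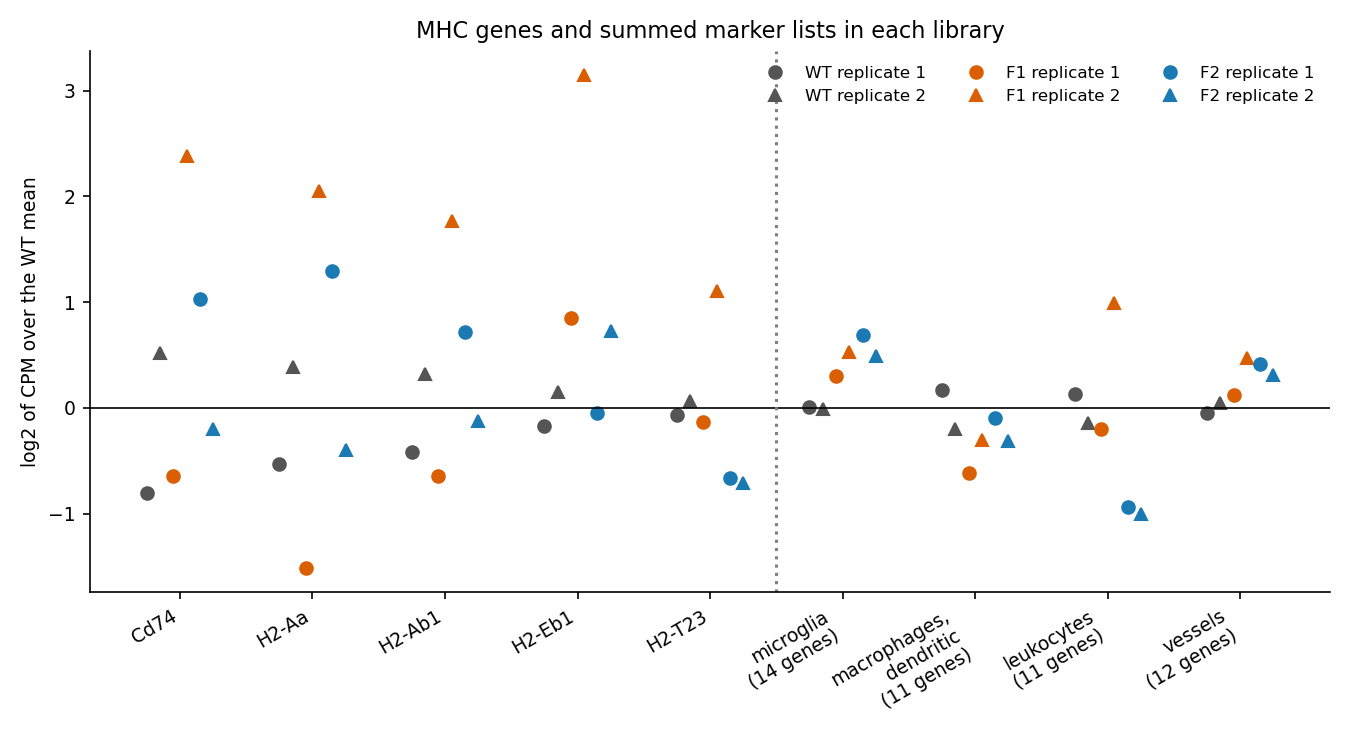
Log2 of the CPM in each library over the WT mean for 5 MHC genes (left of the dotted line) and for the summed CPM of 4 lists of cell-type markers (right), with colours for groups and symbols for replicates. F1 replicate 2 is the highest library for the 5 MHC genes and for the leukocyte list, whereas the microglial list is higher in all 4 F1 and F2 libraries than in WT and the vessel list is highest in F1 replicate 2 and F2 replicate 1.

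Markers of other cells moved with some of these values, and their part in them was not tested. In bulk tissue, fewer cells of a type and less RNA per cell cannot be told apart. All 8 granule cell markers were detected in every library, with a sum of 974 to 1420 CPM, including Calb1 at 265 to 392 CPM and Prox1 at 228 to 345 CPM. Detection does not show how pure the dissected layer was. Oligodendrocyte markers summed to 1098 to 2975 CPM, astrocyte markers to 1251 to 2035 CPM and interneuron markers to 574 to 809 CPM. The 11 markers of lymphocytes and blood leukocytes summed to 1.68 to 2.12 CPM in WT and F1 replicate 1, 3.85 in F1 replicate 2 and 0.965 to 1.01 in F2, and 9 of the 11 were at 0 in at least 1 library. In F1 replicate 2, 11 reads fell on Cd3g and 10 on Nkg7 (both of T or natural killer cells), against at most 1 and 2 reads in each other library, and Ccr2, of monocytes, had 37 reads against 5 to 19. Ly6c2, which closely resembles Ly6c1, had 1 and 0 reads in WT, 20 and 34 in F1 and 2 and 9 in F2, and Cd79a, with the most reads of the list, fell from 45 and 24 reads in WT to 9 and 12 in F1 and 2 and 8 in F2. F2 replicate 1, the next highest for H2-Aa, H2-Ab1 and Cd74 but not for H2-Eb1, had a leukocyte sum of 1.01 CPM.

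The 14 microglial markers were detected in every library and summed to 185 and 183 CPM in WT, 226 and 264 in F1 and 296 and 257 in F2. Of the 14, 2 were called higher in F1 (among them Fcrls) and 7 in F2 (among them Fcrls, Cx3cr1, Tmem119, Csf1r, C1qa and C1qb), and 0 were called lower. Of all tested genes, 3.96% were called higher in F1 and 3.98% in F2. Fcrls rose by a log2 value of 1.53 ± 0.30 in F1 and 1.82 ± 0.30 in F2. The microglial sum was highest in F2 replicate 1, while B2m and the heavy chains were highest in F1 replicate 2. The 11 markers of border macrophages and dendritic cells summed to 19.0 to 32.8 CPM, highest in WT replicate 1, with Mrc1 higher in F2 (2.21 and 2.25 CPM in WT, 6.65 and 3.45 in F2) and Flt3, which had the most reads, lower in both groups. Flt3 fell by 0.79 ± 0.19 on the log2 scale in F1 and by 0.85 ± 0.19 in F2.

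Markers of vessels and glia also differed. The 12 endothelial and pericyte markers summed to 258 and 274 CPM in WT, 289 and 368 in F1, and 355 and 330 in F2. F1 replicate 2 and F2 replicate 1 were thus the highest libraries for this sum, as for H2-Aa, H2-Ab1 and Cd74. The 7 astrocyte markers summed to 1251 and 1306 CPM in WT, 1492 and 1830 in F1, and 2035 and 1660 in F2, with the same pair highest in the opposite order. Of 12 endothelial and pericyte markers 1 was called higher in F1 (Ly6c1) and 1 in F2 (Pecam1), of 7 astrocyte markers 1 in F1 (Aldh1l1) and 4 in F2 (with Gfap, Gja1 and Aldoc), and of 8 oligodendrocyte markers 3 in F1 (Mag, Cnp and Cldn11) and 2 in F2 (Cnp and Cldn11). The oligodendrocyte sum ranged from 1098 CPM in WT replicate 1 to 2975 CPM in F1 replicate 1. Of 4 tested red blood cell markers 1 was higher in F1 (Hbb-b1), 0 of the 2 choroid plexus markers that could be tested, of 5 listed, was called, and of the 8 granule cell markers 1 (Plk5) was lower in both groups. Of 6 interneuron markers 1 (Gad2) was higher in F2. Beside these counts, 3.96% of all tested genes were called higher and 8.59% lower in F1, and 3.98% and 8.15% in F2.

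The wider pathway was taken from 6 lists of class I and II genes, loading factors, regulators and receptors. Beside the members these hold 68 genes of the files, of which 48 were tested. In F1 against WT 2 of 48 were higher (H2-Eb1 and H2-T22) and 1 was lower (Ifi30), or 6.25% called, against 12.5% of all tested genes. In F2 against WT 2 of 48 were lower (H2-Q6 and Ifi30) and 0 higher, or 4.17% called, against 12.1%. In F2 against F1 0 of 48 were called, against 0.729%. An unadjusted p under 0.05 in the exact test was reached by 7 of the 48 and by 1530 of the 17421 tested genes. The same shares of all genes stand beside the counts of each list below. The log2 fold changes of the 48 genes had a median of 0.01 in F1, and of -0.13 in F2. The quasi-likelihood test called 0 of them in F1 and 1 (Ifi30) in F2, and no gene was called in F1 without WT replicate 1 or without F1 replicate 2.

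Among the 12 tested class I heavy chains, H2-T22, a non-classical chain recognized by gamma delta T cells, measured 1.47 and 1.58 CPM in WT, 3.07 and 3.89 in F1, and 1.20 and 2.00 in F2. Its log2 fold change in F1 was 1.19 ± 0.31 (adjusted p = 0.0016, edgeR's exact test). The call was lost with DESeq2, with the quasi-likelihood test, without either WT replicate and without F1 replicate 2. Its near copy H2-T10 measured 2.68 and 3.03 CPM in WT, 2.08 and 1.26 in F1 and 3.33 and 2.38 in F2. The share of H2-T22 in the reads of the pair was 35.5% and 34.4% in WT, 59.6% and 75.5% in F1, and 26.4% and 45.8% in F2, so the rise of one went with lower values of the other. Only 63.3% of the exon windows of H2-T22 and 64.7% of those of H2-T10 occur at 1 place, which makes both values uncertain.

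H2-Q6, a chain of the Qa-2 group, measured 2.97 and 4.58 CPM in WT, 2.24 and 2.82 in F1, and 1.23 and 1.86 in F2. It was lower in F2 by a log2 value of -1.28 ± 0.33 (adjusted p = 0.0014, edgeR's exact test), and its F1 value was -0.57 ± 0.31. The F2 call was lost with the quasi-likelihood test without a block, without WT replicate 2 and without F2 replicate 1. Its windows are 62.6% at 1 place, and those of its neighbour H2-Q7, with -1.16 ± 0.37 in F2 and an adjusted p of 0.0142 (edgeR's exact test), 34.8%. In F2, 10 of the 12 tested heavy chains had negative values, with a median of -0.51, where 50% of all tested genes were negative. In F1 it was 5 of 12, with a median of 0.12, where 49.1% of all were negative. Several of these chains share exon windows with each other, so the 12 values are not separate readings.

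Of the 14 tested genes of class I peptide supply and loading 0 were called in either group, and Calr (calreticulin), the best counted, ranged from 319 to 611 CPM. Of the 12 tested class II genes, Ifi30, a lysosomal thiol reductase that prepares antigens, was the 1 called in both groups by the exact test. It measured 7.30 and 5.98 CPM in WT, 3.50 and 3.47 in F1, and 2.50 and 3.12 in F2, with no overlap between WT and the other groups. The log2 fold change was -0.93 ± 0.23 in F1 (adjusted p = 8.3e-04) and -1.24 ± 0.24 in F2 (adjusted p = 8.2e-06) in edgeR's exact test. The F1 call was lost with the quasi-likelihood test, without WT replicate 1 and without either F1 replicate, and the F2 call without F2 replicate 1. Ctsl, a lysosomal protease with the most reads among those not called, differed by 0.19 ± 0.11 and 0.21 ± 0.11.

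Of the 14 regulators of MHC transcription 0 were called in either group. Nfyb, a subunit of the CCAAT-binding factor and the best counted, ranged from 66.1 to 80.7 CPM. Ciita, the class II transactivator, measured 3.24 and 2.78 CPM in WT, 1.55 and 2.04 in F1, and 1.68 and 1.71 in F2, with adjusted p of 0.0389 and 0.0207 in edgeR's exact test. Nlrc5, the class I transactivator, measured 0.706 and 0.845 CPM in WT, 0.561 and 1.33 in F1, and 0.299 and 0.186 in F2, from 5 to 41 reads, with an adjusted p of 0.0227 in F2 (edgeR's exact test). Ciita and Nlrc5 are named here after their values were seen. Of the 5 tested class I-like genes outside the MHC 0 were called, with Fcgrt, the neonatal Fc receptor, at 11.4 to 18.0 CPM, and Lag3, which binds class II molecules, was the 1 tested MHC receptor, at 1.48 to 2.53 CPM and not called.

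The 8 members on chromosome 17 span 2.12 Mb from Tapbp to H2-T23, and 160 genes of the files that are on no pathway list lie between them, of which 98 were tested. In F1 17 of the 98 (17.3%) were called, 1 higher and 16 lower, against 12.5% of all genes, and in F2 20 of the 98 (20.4%), 1 higher and 19 lower, against 12.1%. Their median log2 fold change was -0.13 in F1 and -0.23 in F2. In F1 0 of the 8 members among them were called, and in F2 0 of 8. These counts fell to 9 in F1 and 6 in F2 without WT replicate 1, to 10 in F1 without F1 replicate 2, and to 6 in F2 without F2 replicate 1.

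None of the genes named next is on a pathway list. Rgl2, a regulator of Ral signalling that lies close to Tapbp, measured 101 and 76.9 CPM in WT, 37.0 and 30.4 in F1, and 36.3 and 37.9 in F2, a log2 fold change of -1.40 ± 0.15 in F1 and -1.26 ± 0.15 in F2. Col11a2, a collagen chain, fell by 1.27 ± 0.16 and 1.08 ± 0.16 on the log2 scale, Tnxb, a tenascin, by 1.01 ± 0.14 and 0.82 ± 0.14, and Vars, the valyl-tRNA synthetase, by 0.84 ± 0.12 and 0.82 ± 0.12. Vars2, its mitochondrial counterpart, fell by 0.73 ± 0.14 and 0.65 ± 0.14, the latter not called without WT replicate 1 or without F2 replicate 1. Ager, which encodes the receptor for advanced glycation end products, measured 3.79 and 4.22 CPM in WT, 1.45 and 1.10 in F1, and 3.51 and 2.97 in F2, and was lower in F1 (log2 fold change -1.65 ± 0.28) but not called in F2 (-0.30 ± 0.25). The difference between F2 and F1 was itself called for Ager (log2 fold change 1.34 ± 0.29, adjusted p = 6.4e-04 in edgeR's exact test).

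The 1 higher gene was Zbtb22, a zinc finger gene that overlaps Tapbp and is named here after its values were seen. It measured 23.6 and 25.2 CPM in WT, 35.2 and 33.5 in F1, and 33.5 and 35.1 in F2, a log2 fold change of 0.49 ± 0.13 in each group. It was not called by the quasi-likelihood test in either group, nor in F1 without WT replicate 1 or F1 replicate 1, nor in F2 without WT replicate 1 or either F2 replicate. Both genes are annotated on the plus strand from nearly the same start, and reads that could belong to either are set aside as ambiguous by the counting mode the authors used.

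**Figure D5:**
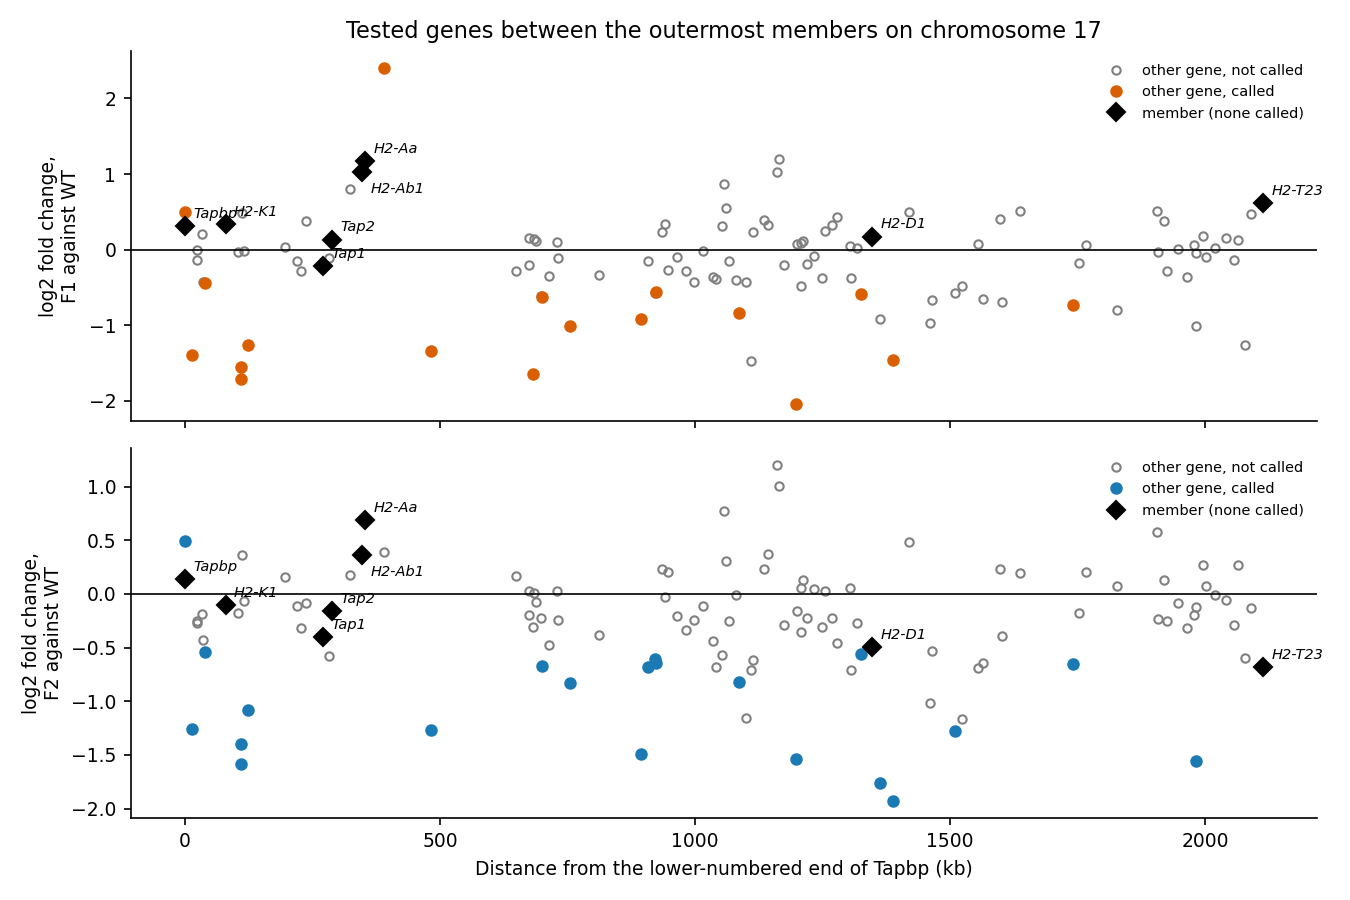
Log2 fold change against WT of each tested gene between the outermost members on chromosome 17, by distance from the lower-numbered end of Tapbp, for F1 (top) and F2 (bottom). Black diamonds are members, filled circles are other genes that were called and open circles are other genes that were not; most filled circles lie below 0, between and beside members that lie nearer to 0, and the highest filled circle in F1 is H2-Eb1.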

How the data were processed

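The RNA was extracted from dissected ventral granule cell layers, and poly(A) libraries were made with a kit that does not mark strand and read as 50-base single reads. According to the study's methods, the authors aligned the reads with TopHat to mm9 and counted them per gene with HTSeq in its strict intersection mode, and the deposited values are raw counts, 1 file per library. Rows that name no gene held 35.3% to 46.6% of each file's total and were left out. Replicates were distinct (chi-square per degree of freedom 18.5 to 23.0). Genes were filtered with filterByExpr, scaled by TMM and tested with edgeR 4.0.16 in R 4.3.3 (dispersions from all 6 libraries, exact test, Benjamini-Hochberg adjustment over 17421 genes, adjusted p under 0.01); the study also used edgeR. The biological coefficient of variation was 10.6%. The quasi-likelihood test, a replicate block, DESeq2 1.42.0, other scalings, no filter, another threshold and leaving out each library were tried. Same-numbered libraries did not deviate together (correlations over genes of -0.03, -0.08 and -0.18), so replicate numbers were not taken as pairs. Gene positions and exon windows of 50 bases came from the GENCODE annotation and the mm9 genome, and symbols with several loci were not placed. Shares of reads carry exact binomial intervals.

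The members and the lists were chosen with earlier results of these data known. The named genes are all members, every pathway gene called in a comparison, the best counted gene of each pathway list that was not called, the marker genes with most reads or called, and up to 6 of the called genes between members with the smallest adjusted p. H2-T10, H2-Q7, Prox1, Cd3g, Nkg7 and Ccr2 are named outside this rule, as are Ciita, Nlrc5 and Zbtb22. Promoter sequences are from RefSeq (GRCm38.p6), and figures were drawn with Python 3.11.15 and matplotlib 3.10.9. The methylation libraries of the series were not analysed here, and 1 marker gene that the naming rule covers is not reported here.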

Additional observations from a re-analysis of the deposited data

How the results depend on the processing

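Of 450 values of the 10 members' log2 fold changes in 3 comparisons under 15 alternatives, 422 kept their sign and their side of the threshold, 8 became called and 20 changed sign. Scalings, no filter, DESeq2 and the quasi-likelihood test, with or without the block, changed none of the members' signs and called none of them. With the replicate block in a likelihood-ratio fit, H2-Aa in F2 against F1 changed to 0.14.

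Leaving out libraries mattered most. In F1 against WT, the lowest and highest values without a replicate were -0.24 and 0.54 for H2-D1, -0.13 and 0.70 for H2-K1, -0.12 and 0.39 for B2m, -1.50 and 2.06 for H2-Aa, -0.63 and 1.79 for H2-Ab1, -0.63 and 2.39 for Cd74 and -0.12 and 1.12 for H2-T23. In F2 against WT they were -0.38 and 0.25 for H2-K1, -0.50 and 0.0060 for B2m, -0.39 and 1.30 for H2-Aa, -0.12 and 0.78 for H2-Ab1 and -0.20 and 1.36 for Cd74. In F2 against F1 they were -0.80 and 0.030 for H2-K1, -1.56 and 2.19 for H2-Aa, -1.42 and 1.00 for H2-Ab1 and -1.84 and 1.19 for Cd74.

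Members called ranged from 0 to 4 in F1, 0 in F2 and 0 to 3 in F2 against F1 without a replicate. Wider pathway genes called ranged from 0 to 3 in F1, 0 to 5 in F2 and 0 to 2 in F2 against F1, and genes between the chromosome 17 members from 9 to 19 in F1 and 6 to 22 in F2. With the quasi-likelihood test 0 wider pathway genes were called in F1 and 1 in F2, and 12 genes between members in F2. With the replicate block it called 1 wider pathway gene in F1 and 10 genes between members in each group, and a likelihood-ratio fit of that block called 1 wider pathway gene in F2 against F1. With dispersions from the pair of groups 5 wider pathway genes were called in F2. At an adjusted p under 0.05, 6 were called in F1, 6 in F2 and 2 in F2 against F1. Exchanging the numbers of the F2 libraries in the block, an alternative added after the data were seen, called 1 member in F1, and 4 wider pathway genes in F2 and 1 in F2 against F1. Over all genes the quasi-likelihood test called 1029, 997 and 2 genes in F1, F2 and F2 against F1 (848, 758 and 9 with the block), against 2186, 2113 and 127 in the exact test. The cause of these changes was not tested. With 2 libraries a group small differences could be missed, and no detection limit was computed. Reads per library were 40 to 161 on H2-T23 and 28 to 337 on H2-Aa. B2m, with 1302 to 2192 reads, still had a standard error of 0.17 in F1 against WT.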
